A study of Mus musculus with 2 samples.

Results

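The Igha and Ighe interval is the stretch of the mouse immunoglobulin heavy-chain (Igh) locus that holds the constant genes of IgA and IgE with their switch regions. Its contacts were read from 5C, an assay in which fixed chromatin is cut with HindIII and ligated, and chosen junctions are amplified with 1 forward and 1 reverse primer and sequenced. A count for a primer pair then measures how often both fragments were joined. The interval was taken as every assayed HindIII fragment whose midpoint lay from 114493000 to below 114518000 on chromosome 12 (mm9), an approximate position for both genes. That gave 5 adjoining fragments and 504 of the 10584 forward-by-reverse primer pairs of the locus, or 4.76%, with pairs at 0 kept. No pair was chosen by its count.

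The cells were resting B cells from the spleen of C57Bl/6 mice, left unstimulated and enriched as CD43- cells with magnetic beads. There was 1 group of 2 libraries, biological replicates per the series' design text, so no comparison between conditions and no test across groups was possible. Values are given for each library or as the mean ± SD (n = 2), and a difference is set against that SD. Age, sex and the number of animals are not given in the labels, and no expression values were at hand to check the cell type against markers. Distances are those of the mm9 germline sequence, whereas B cells carry rearranged Igh alleles that lack the DNA between the joined segments. The part of such deletions in the counts was not tested.

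Igha encodes the heavy chain of IgA, the antibody class of mucosal surfaces, and Ighe that of IgE, the class bound by mast cells. Both are silent in resting B cells, which use Ighm and Ighd, and are reached by class switch recombination, in which the switch region ahead of Ighm is joined to one ahead of a downstream constant gene. From low to high coordinates, RefSeq (GRCm38.p6, used for names and order only) lists Igha and Ighe first, then Ighg2c and Ighg2b, then Ighg1 and Ighg3, and last Ighd with Ighm. Igha thus borders the 3′ regulatory region, a cluster of enhancers needed for germline transcription of most switch regions and for switching. The Emu enhancer lies beyond Ighm, next to the JH segments, and the D and VH segments follow at higher coordinates. Bounds of all partner regions are approximate positions set by hand.

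Fragments are named by primer type (F or R) and number along the locus. R35 spanned chr12:114493852-114496828 (2977 bp), F36 spanned chr12:114496829-114501530 (4702 bp) and R37 spanned chr12:114501531-114502799 (1269 bp). F38 covered chr12:114502800-114510164 (7365 bp), and R39 covered chr12:114510165-114522181 (12017 bp). Fragments were not assigned to exons, introns or switch repeats, since no mm9 annotation was used here. Only forward-by-reverse pairs were measured, so R35, R37 and R39 each had 98 pairs and F36 and F38 each had 108.

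The libraries held 16067416 and 15096402 counts, of which pairs of the interval took 8.07% in each. Pairs of neighbouring fragments that share a HindIII site, 6 of the 504, held 55.5% and 58.3% of the interval's counts. The median pair of the interval had 323 and 295.5 counts, against 105 and 95 over all pairs. At 0 were 0 and 2 pairs of the interval, and both of the latter had 1 count in replicate 1. Across the 504 pairs the libraries correlated with Spearman's rho 0.945 for counts. Among the 372 pairs with at least 100 counts the median ratio between libraries was 1.22, and 92.5% differed by less than 2 times. These pairs share 5 primers and the decline with distance, so the correlation describes the tables and carries no p.

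The amount of contact was expressed as a level, the log2 of count plus 1 minus its LOWESS on log10 distance over all 10584 pairs of that library. A level of 1 means about 2 times the typical count at that distance. Over its 504 pairs the interval had a mean level of 1.42 in replicate 1 and 1.5 in replicate 2 (1.46 ± 0.054). This was the highest of the 12 regions into which the locus was divided. The neighbouring Ighg2c and Ighg2b interval was within that SD at 1.46 ± 0.042, and the next region, Ighg1 and Ighg3, was at 0.77 ± 0.0065. Of the 504 pairs, 388 lay above 0 in both libraries, or 77.0%, against 49.4% of all pairs of the locus.

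The high level came from 3 of the 5 fragments. F38 had a mean level of 2.65 and 2.78 in replicates 1 and 2, the 2nd highest of 98 forward primers, and a median of 516.5 and 542 counts per pair. R35 had 2.36 and 2.46, the 4th highest of 108 reverse primers. R37 had 2.21 and 2.14, the 6th highest. F36 was lower at 0.61 and 0.74 (34th of 98), and R39, the longest fragment, was below typical at -0.74 and -0.65 (74th of 108), with a median of 66.5 and 66 counts. The fragments therefore spanned over 3 log2 units, far beyond the difference between libraries, and R39 differed from F38, its neighbour, by the whole of that span. F38, R35 and R37 were above typical with every partner region of the locus outside the interval, as the map of levels by fragment and region shows.

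**Figure D1:**
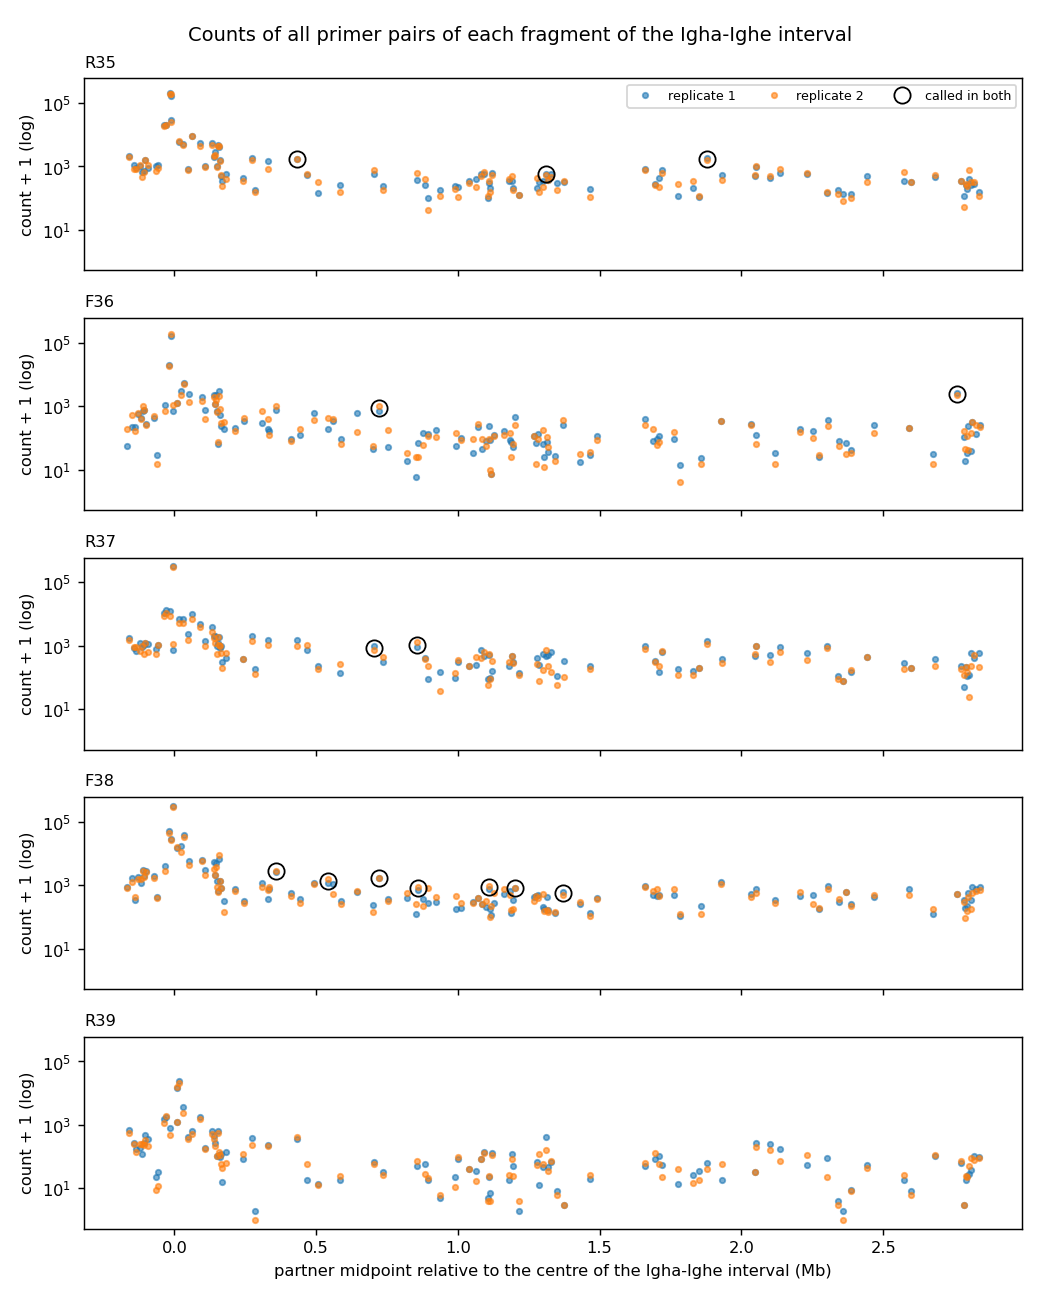
Count plus 1 (log axis) of every pair of the 5 fragments, 1 panel a fragment, against the partner's midpoint relative to the centre of the interval in Mb; blue and orange points are replicates 1 and 2, and open circles mark the 14 pairs called in both libraries. R39 sits lowest, with a median of 66.5 and 66 counts, and F36 has 1 pair near 2.76 Mb far above its other distant pairs.

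A primer that ligates or amplifies well reads high with all partners, and so does a fragment that contacts everything often. Counts of 1 assay cannot tell these apart. Each comparison between partners is therefore also given as a primer-adjusted level, in which the mean effect of both primers was removed along with the distance fit. On that scale the interval's 504 pairs averaged 0.01 ± 0.0027 by construction. Only differences among its partners remain, and the libraries agree less closely on them (Spearman's rho 0.708, against 0.924 for levels).

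Within the interval, neighbouring fragments were joined very unequally. F38-R37 had 316974 and 293546 counts, F34-R35, across the lower border, 201310 and 191458, and F36-R35 had 161829 and 187195. F40-R39, across the upper border, had 24009 and 20954, and F38-R39 had 14825 and 15800. Both of these lay below the median of the 81 pairs of the locus that share a HindIII site, 32696 and 27906 counts. F36-R37, equally adjacent, had 715 and 1105 counts, the 6th and 8th lowest of the 81, while each of the fragments had over 100 times as many with its other neighbour. With that pair the 6 pairs inside the interval had a primer-adjusted level of -1.23 ± 0.223, and without it the other 5 had -0.10 ± 0.137.

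With the 3′ enhancers, which begin at its border, the interval had 21 pairs at distances of 2.853 to 72.0 kb. Their level was 1.04 and 1.0 in replicates 1 and 2 (1.02 ± 0.031), or 2.03 ± 0.043 times the typical count. On the log2 scale this is lower than the interval's level with the other constant genes in both libraries. The SD between libraries does not measure the spread among pairs, whose mean levels ran from -4.72 (F23-R39) to 4.97 (F38-R33). Low pairs such as F23-R39, F36-R24 (-4.61) and F25-R39 (-4.38) pull the enhancer mean down. On the count scale, the log2 of summed counts over summed expected counts, the values were 0.55 ± 0.016 and 0.60 ± 0.083, a gap within the SD. After primer adjustment it was -0.61 and -0.63 (-0.62 ± 0.021), with 13 pairs below 0 and 4 above 0 in both libraries. The enhancer pairs were thus low for fragments that read as these do.

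The fragments differed in this contact. R35, at the border, had a primer-adjusted level of 0.01 ± 0.125 with the enhancers, and F36, the next fragment, had -1.63 ± 0.20. R37 had -0.30 ± 0.140, F38 had -0.64 ± 0.031 and R39 had -0.95 ± 0.251. By level, the strongest enhancer pairs without a shared site were F38-R33, with 51185 and 44638 counts at 17.6 kb, and F28-R35, with 20589 and 19087 at 25.4 kb. They stood at 31.5 ± 2.81 and 20.6 ± 2.88 times the typical count, with adjusted levels of -0.89 ± 0.060 and 0.03 ± 0.238. F31-R35 had slightly more counts than F28-R35, 20658 and 20343 at 16.3 kb. It stood at 12.3 ± 2.12 times the typical count, with an adjusted level of -1.40 ± 0.090. At the other end, the lowest enhancer pair of F36 was F36-R24, with 28 and 14 counts at 50.7 kb. R39 had 22 and 8 counts with F23 at 72.0 kb and 31 and 11 with F25 at 65.8 kb. R35, which lies nearer to both, had 1012 and 704 counts with F23 at 51.2 kb and 1120 and 921 with F25 at 45.0 kb. F23-R35 and F23-R37 were the enhancer pairs with the highest primer-adjusted levels, 1.0 ± 0.087 and 1.05 ± 0.187.

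Beyond the enhancers, the 3′ flank of the locus had 42 pairs with the interval at 61.3 to 169 kb. Their level was 1.17 and 1.48, and their primer-adjusted level -0.90 and -0.77 (-0.84 ± 0.090). Of these pairs 34 were below 0 in both libraries after adjustment, or 81.0%, against 34.2% of all pairs of the locus. In 4 of the 5 fragments the adjusted mean was below 0 in both libraries, between -1.24 and -0.98. R39 was the exception at 0.10 ± 0.038.

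With the other constant genes, the targets and the donor of class switching, the interval had 51 pairs. Their level was 2.53 and 2.57 (2.55 ± 0.034), or 5.86 ± 0.138 times the typical count. On the log2 distance-only scale this was the highest of the 4 partner groups compared. The order changed elsewhere: on the count scale the values were 0.60 for the other constant genes, 0.99 for VH and 1.30 for Emu-JH. Iterative correction gave 0.60 for both the other constant genes and VH, and 0.53 and 0.73 without shared-site pairs. The level was alike for Ighg2c and Ighg2b (2.48 ± 0.067, 13 pairs), Ighg1 and Ighg3 (2.62 ± 0.0094, 15 pairs), and Ighd and Ighm (2.54 ± 0.044, 23 pairs). The primer-adjusted level separated them. It was -0.22 ± 0.014 for Ighg2c and Ighg2b next door, 0.50 ± 0.086 for Ighg1 and Ighg3, and 0.63 ± 0.045 for Ighd and Ighm at 125 to 166 kb.

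Ighd and Ighm, the constant genes in use in resting B cells, were the partner region with the most uniform excess. Of the 23 pairs 20 were above 0 in both libraries after adjustment, against 38.5% of all pairs. F36 (1.03 ± 0.077), R35 (0.89 ± 0.043), R39 (0.87 ± 0.027) and R37 (0.38 ± 0.026) were above 0 in both libraries, and F38 (-0.06 ± 0.232) was not. F68-R35 was the strongest such pair by level. It had 5436 and 4654 counts at 145 kb, 22.0 ± 1.12 times the typical count, with a primer-adjusted level of 1.38 ± 0.045. The highest after adjustment was F36-R77, with 699 and 647 counts (1.62 ± 0.037).

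Among the nearer constant genes, F38-R44, in the Ighg2c and Ighg2b interval at 36.9 kb, had 37600 and 33903 counts. Its level of 5.74 ± 0.174, or 53.5 ± 6.44 times the typical count, was the highest of any pair of the interval without a shared site. Against the LOWESS of the counts themselves it was 8.93 ± 0.186 times the expected count, and its primer-adjusted level was 0.34 ± 0.049. F49, in the Ighg1 and Ighg3 interval, paired with R35 (9137 and 9169 counts) and with R37 (9758 and 6890). These stayed high after adjustment, at 1.48 ± 0.264 and 1.45 ± 0.039. F54-R39, with 1754 and 1581 counts, was among the 3 highest levels of R39 (2.28 ± 0.146). The others were with VH fragments, F158-R39 with 363 and 402 counts and F415-R39 with 402 and 166, the latter differing by over 2 times between libraries.

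The enhancers and flank lie on one side of the interval and the other constant genes and Emu on the other. Both sides were therefore compared within the same distance classes. At 50 to 170 kb, 49 pairs toward lower coordinates had a median of 741 and 676 counts, and 55 pairs toward higher coordinates had 1416 and 1176. The levels were 0.90 ± 0.157 and 2.19 ± 0.084, and the primer-adjusted levels -0.79 ± 0.066 and 0.37 ± 0.043. At 10 to 50 kb the levels were 2.30 ± 0.076 (12 pairs) and 2.68 ± 0.078 (10 pairs), and the adjusted levels -0.73 ± 0.0045 and -0.35 ± 0.012. Median counts went the other way there, with 7509.5 and 5851 on the lower side and 5682.5 and 5112.5 on the higher. The median distances in that class were 25.0 and 33.3 kb. The difference in level between sides exceeded the SD between libraries in both distance classes, before and after primer adjustment. The median distance in the wider class was 108 kb on the lower side and 148 kb on the higher.

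**Figure D2:**
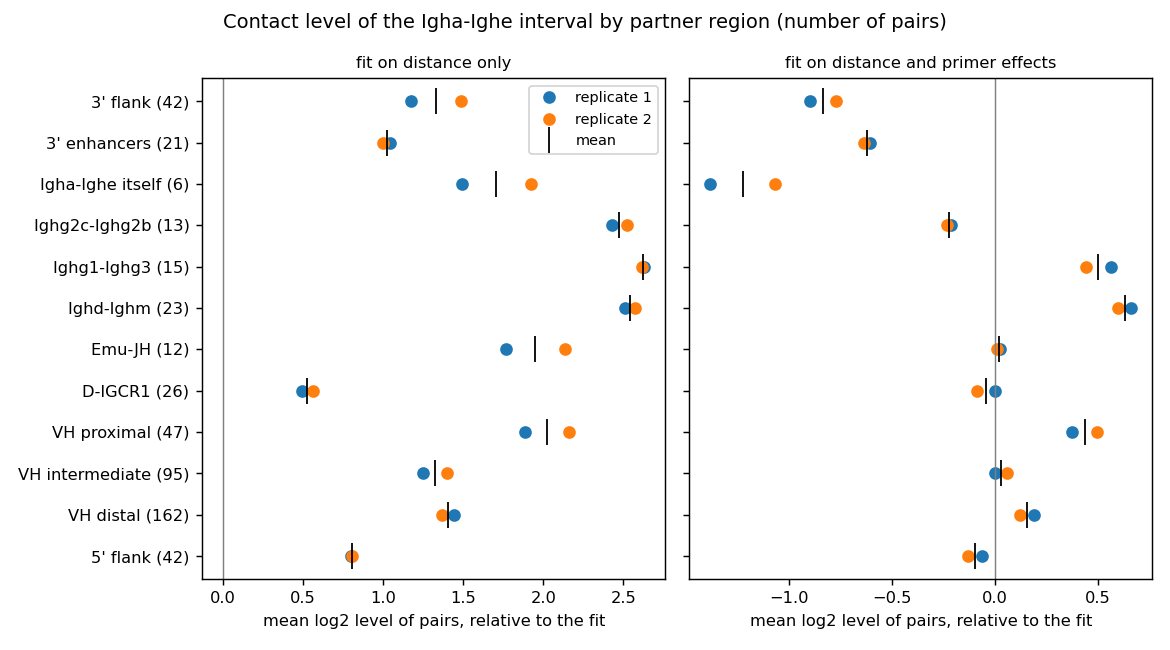
Mean log2 level of the interval's pairs with each of the 12 regions, ordered along the locus, with the number of pairs in brackets; points are the libraries and ticks their mean, with distance alone fitted (left) and with distance and primer effects fitted (right). All regions are above 0 on the left, while on the right the 3′ flank and enhancers fall to -0.84 and -0.62 and Ighd-Ighm stands at 0.63.

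With Emu and the JH segments, at 148 to 172 kb, the interval had 12 pairs. Their level was 1.76 and 2.14 (1.95 ± 0.264), or 3.90 ± 0.708 times the typical count, and the primer-adjusted level was 0.03 and 0.01 (0.02 ± 0.013). Iterative correction, which scales all primers to equal totals, gave -1.04 with all pairs and 0.28 ± 0.032 without pairs that share a HindIII site. The direction of this contact thus depended on the scaling and on those pairs. The pairs disagreed by fragment. R35 had 4063 and 4564 counts with F80, 21.3 ± 5.09 times the typical count, with a primer-adjusted level of 1.96 ± 0.038. It also had 1642 and 1452 counts with F82 (0.52 ± 0.169). R35 was thus the fragment with the highest Emu-JH level after adjustment, 1.24 ± 0.066, while R37 was at 0.26 ± 0.150.

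F38 had the largest count of the interval in Emu-JH, 6725 and 9040 with R81 at 159 kb, which was 37.6 ± 13.6 times the typical count on the log scale and 10.7 ± 3.03 times the expected count, the LOWESS of the counts themselves. The primer-adjusted level of F38-R81 was -0.45 ± 0.138. R81 had 2314265 and 2559130 counts in all, the highest total of any primer. Most of that total came from its shared-site pairs, F82-R81 (1510088 and 1644784) and F80-R81 (627084 and 703264). The total thus says little about how R81 reads with distant partners. F36-R81 had 3021 and 2099 counts (-0.01 ± 0.542). The other pairs of F38 were F38-R79 with 673 and 634 counts (0.44 ± 0.037) and F38-R83 with 1390 and 1417 counts (-1.28 ± 0.136). F36-R79 had 64 and 75 counts, and F36-R83 had 533 and 828. R37 had 1815 and 1054 counts with F80 and 857 and 972 with F82. R39 was low with both, at 114 and 138 counts with F80 and 94 and 108 with F82. R35-F80 was the Emu-JH pair farthest above what both primers give elsewhere.

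**Figure D3:**
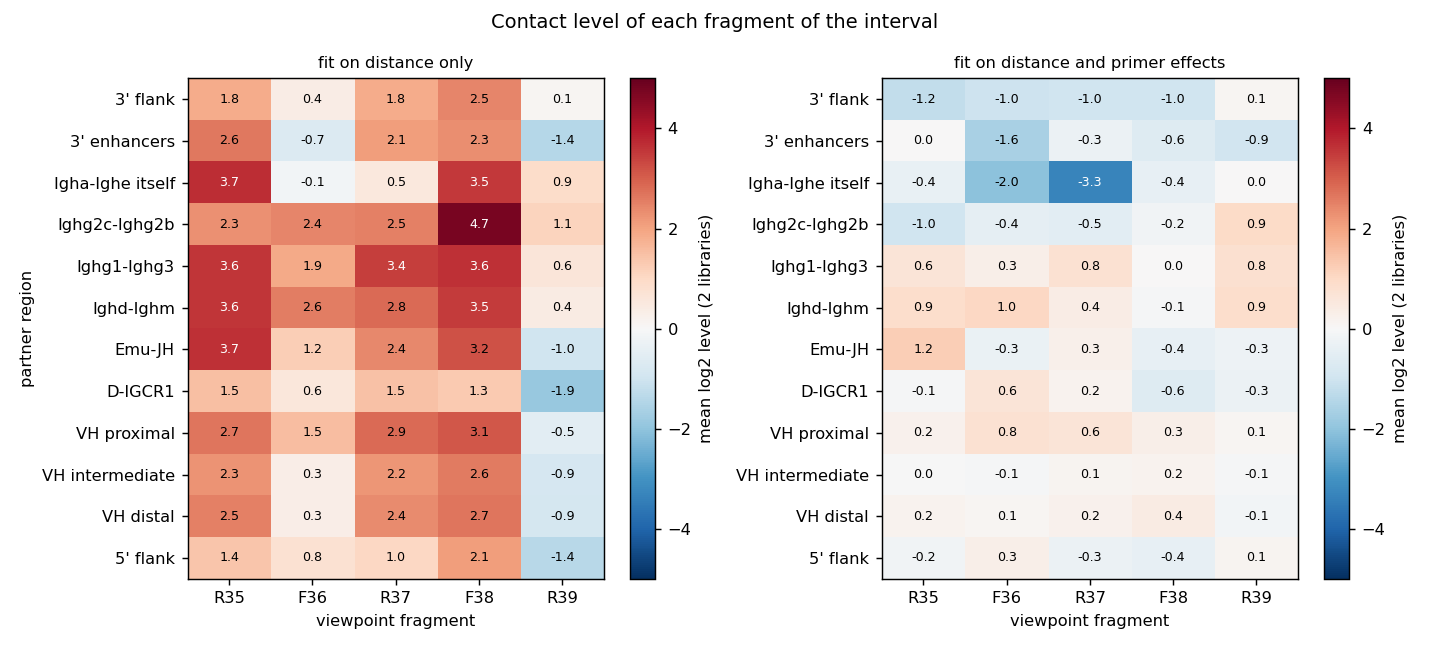
Mean log2 level (mean of 2 libraries, printed in each cell) of each fragment of the interval with each region, with distance alone fitted (left) and with distance and primer effects fitted (right); red is above and blue below 0. On the left R35, R37 and F38 are red throughout the partner regions and R39 is blue beyond the constant genes, and on the right R37 and F36 are lowest with the interval itself (-3.3 and -2.0), while among partner regions outside it R35 with Emu-JH (1.2) is highest and F36 with the 3′ enhancers (-1.6) lowest.

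Single pairs were called by the count's z, the residual from the LOWESS of counts on distance over the local SD, where it was 2 or more in both libraries. Of the 504 pairs of the interval 14 were called, or 2.78%, against 1.45% of all 10584 pairs. The neighbouring 3′ enhancers had 5.74% of their pairs called, and Ighg2c and Ighg2b had 2.53%. No pair of the interval under 100 kb was called (0 of 58, against 1.1% of all pairs at that distance). At 100 kb to 1 Mb 8 of 177 were called (1.94% of all pairs), and over 1 Mb 6 of 269 (1.07%). F38 held 7 of the calls, R35 held 3, F36 and R37 held 2 each, and R39 held 0. None of the 84 pairs with the 3′ enhancers, the other constant genes and Emu-JH was called. With 1.45% called among all pairs, 0 of 84 is near the share of the locus. The neighbours differed with such partners. The 3′ enhancers had 8 of 78 pairs called with the regions from Ighg2c to Ighm and 4 of 21 with Emu-JH. Ighg2c and Ighg2b had 0 of 37 called with the regions from Ighg1 to Ighm and 0 of 13 with Emu-JH. The z of near pairs is also divided by a large local SD. F38-R44, at 53.5 times the typical count, had z of 1.37 and 1.39. Leaving F38 out of the interval left 7 calls, and adding F34, whose midpoint lay 513 bp below the lower bound, gave 18.

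The share called depended on the scale. With z on log2 counts 5 pairs passed (0.671% of all pairs did), of which 3 were among the 14. With z on primer-adjusted levels 1 passed, against 1.21% of all pairs, and after iterative correction 4 passed, against 1.37%. The interval's share was above that of the locus on the count scale, near it on the log2 scale (0.992%), and below it on both scales that remove primer effects (0.198% and 0.794%).

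Of the 14 calls 13 had a partner among the VH segments, the variable genes, of which B cells join 1 to a D and a JH segment. VH partners also made up 304 of the interval's 504 pairs, and 4.28% of those 304 were called. The 3′ enhancers had 5.91% of their VH pairs called, and Ighg2c and Ighg2b had 4.11%. The proximal VH region held 6 of 47 pairs called (1.7% of all pairs with an end there), the intermediate 4 of 95 (1.11%) and the distal 3 of 162 (1.22%). With proximal VH, the 3′ enhancers had 9 of 86 pairs called and Ighg2c and Ighg2b had 2 of 53. A share above 1.7% there was thus not particular to the interval. The interval's level followed the order of its called shares in part. It was 2.02 ± 0.195 for proximal, 1.32 ± 0.106 for intermediate and 1.40 ± 0.054 for distal VH. Primer-adjusted levels were 0.44 ± 0.086, 0.03 ± 0.041 and 0.16 ± 0.047, so the proximal VH region stood above both others by more than the SD between libraries. That SD does not measure the spread among pairs. After adjustment 25 of 47 proximal, 35 of 95 intermediate and 74 of 162 distal pairs were above 0 in both libraries, against 38.5% of all pairs. Over all 304 VH pairs the level was 1.45 and 1.5, and the adjusted level 0.16 in each library.

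The call with the highest z was F38-R235, in the proximal VH region at 0.723 Mb. It had 1723 and 1735 counts, z of 6.29 and 6.38, and 11.1 ± 0.628 times the expected count. Folds over the expected count are smaller than folds over the typical count and are not comparable with them; this pair was at 28.4 ± 3.18 times the typical count. R235 spanned chr12:115225314-115233376 and was the only partner called from 2 fragments of the interval: F36-R235 had 711 and 1004 counts. The primer-adjusted levels were 0.90 ± 0.063 and 1.92 ± 0.40. R235 was called in 5 of its 96 pairs with fragments outside the interval.

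Other calls in the proximal VH region were F38-R137 (2701 and 2773 counts), F158-R35 (1696 and 1675), F38-R181 (1141 and 1595) and F233-R37 (966 and 742). Their mean adjusted levels lay between 0.12 and 0.49, but that of F38-R181 changed sign between libraries (-0.18 and 0.41). In the intermediate VH region F272-R37 had 889 and 1270 counts and F38-R274 had 711 and 910. R274 was otherwise a low partner, with a mean level of -0.87 over its 96 other pairs, and the adjusted level of F38-R274 was 1.76 ± 0.198. In the distal VH region F556-R35 had 1864 and 1590 counts at 1.89 Mb, an adjusted level of 1.56 ± 0.102. F556-R37, with 1394 and 1127 counts, was among the 3 highest levels of R37 but missed the threshold in replicate 2 (z of 2.77 and 1.66).

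For 3 calls the adjusted level was below 0 in both libraries. F38-R339 had 741 and 974 counts (-0.64 ± 0.297), F38-R435 had 610 and 495 (-1.34 ± 0.099) and F415-R35 had 597 and 557 (-0.71 ± 0.047). Their partners read high elsewhere too, with mean levels of 1.74, 1.95 and 1.60 over their pairs outside the interval. F38-R374, with 810 and 836 counts, was near 0 (0.02 ± 0.062). The threshold itself fell among close values: F38-R435 and F415-R35 were just inside, with lower z of 2.11 and 2.12, and F38-R81 and F38-R171 were just outside, with 1.94 and 1.91.

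The remaining call was unlike the others. F36-R810 joined the interval to the 5′ flank past the VH genes (R810, chr12:117265258-117268163) over 2.77 Mb, with 2595 and 2278 counts. It was the 1 call among the interval's 42 pairs with that flank, against 0.836% of all pairs with an end there. This was 12.9 ± 1.5 times the expected count, with z of 5.65 and 4.56. Its primer-adjusted level of 4.56 ± 0.027 was the highest of the interval's 504 pairs and the 18th highest of all 10584. It was the only pair of the interval called on the count, log2 and primer-adjusted scales.

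Nearby pairs did not share it. F36 had 204 and 204 counts with R768, 30 and 14 with R788, 104 and 168 with R819, and 18 and 42 with R821, the reverse fragments around R810. The other 56 pairs of F36 over 1 Mb had a median of 83 and 93.5 counts and a highest of 438 and 369. The other 71 pairs of R810 over 1 Mb had a median of 77 and 73 and a highest of 687 and 744. None of the 96 pairs of R810 with fragments outside the interval was called, near the 1.38% called among all pairs outside the interval. Among these pairs the high count was thus confined to the junction of F36 and R810. R810 was the only 1 of the 13 called partners with no call outside the interval.

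On distance-only levels the fragments of the interval resembled each other in their VH contacts, but after primer adjustment R39 did not resemble R35 and R37. Over the partners shared by fragments of 1 primer type, Pearson's r of levels was 0.78 for F36 and F38 (68 partners), 0.77 for R35 and R37 (56 partners), 0.68 for R35 and R39, and 0.75 for R37 and R39. Partners keep their own primer effect in these values. On primer-adjusted levels r was 0.36 for F36 and F38 and 0.57 for R35 and R37, but -0.39 for R35 and R39 and -0.30 for R37 and R39. R39, at the upper end, was thus the fragment whose adjusted VH profile ran against the others of its type. Its VH counts were low, however, with a median of 42 and 37.5 in replicates 1 and 2. R35 had 341 and 346, and R37 had 325.5 and 281. The part of low counts in the r values of R39 was not tested.

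The interval was set beside the 3′ enhancers and the Ighg2c and Ighg2b interval, its neighbours on either side, as viewpoints toward the same regions. Differences were not tested, and pairs between the viewpoints are counted in both. On primer-adjusted levels the enhancers had 0.81 ± 0.072 with Ighd and Ighm and 0.65 ± 0.135 with Emu-JH. On that scale the interval's values, 0.63 and 0.02, were lower in both, and by more with Emu-JH. The Ighg2c and Ighg2b interval had 0.20 ± 0.031 with Ighd and Ighm and -0.44 ± 0.048 with Emu-JH. On primer-adjusted levels the interval thus lay between its neighbours in both regions. On distance-only levels it lay above both. With Ighd and Ighm it had 2.54 ± 0.044, the enhancers 1.83 ± 0.082 and Ighg2c and Ighg2b 2.33 ± 0.057. With Emu-JH it had 1.95 ± 0.264, against 1.71 ± 0.307 and 1.5 ± 0.214, gaps that the SDs do not clearly separate. Toward the 3′ flank the interval's adjusted level was -0.84, against -0.36 ± 0.075 for the enhancers and -0.73 ± 0.021 for Ighg2c and Ighg2b, which the SDs hardly separate from the interval. With the proximal VH region the interval had 0.44 ± 0.086, the enhancers 0.23 ± 0.046 and Ighg2c and Ighg2b 0.27 ± 0.0088.

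**Figure D4:**
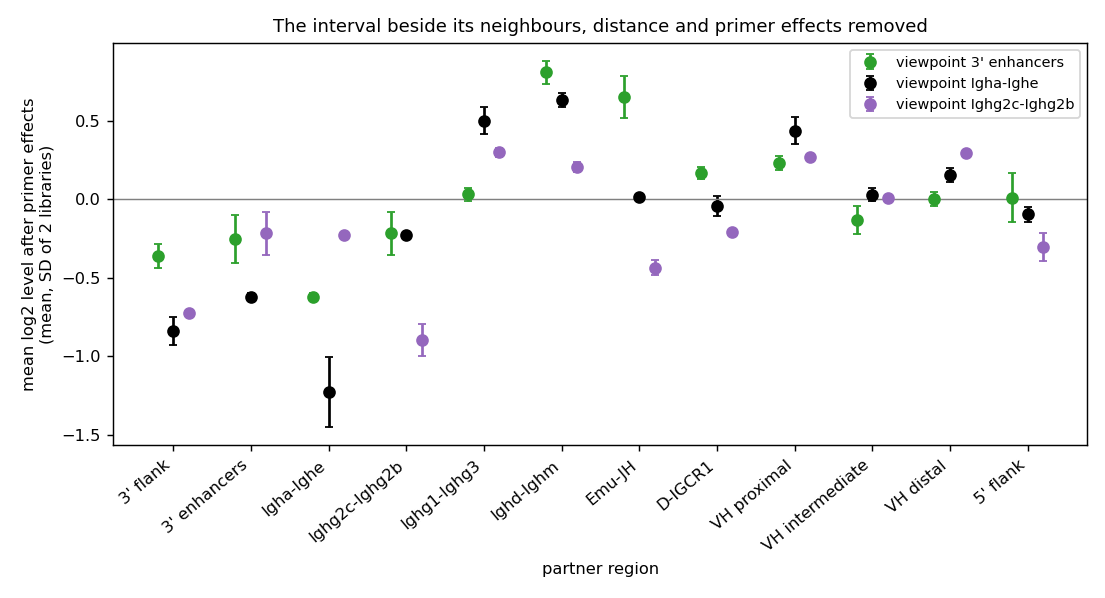
Mean log2 level after distance and primer effects (vertical axis, mean and SD of 2 libraries) by partner region, for the 3′ enhancers (green), the Igha-Ighe interval (black) and the Ighg2c-Ighg2b interval (purple) as viewpoints. With Emu-JH the order is 0.65, 0.02 and -0.44.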

How the data were processed

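The deposited values were sequencing counts for each of the primer pairs, 98 forward by 108 reverse primers, as my5C all-by-all matrices per the file headers. Novoalign and mm9 are named in the submitters' processing notes. Not given in the sources used here are versions, mapping settings and whether any fragment correction was made. Gene desert pairs were not analysed here.

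Expected counts were a LOWESS (span 0.2, statsmodels 0.14.6) of count on log10 midpoint distance over all pairs, by library, and z was the residual over the root of the LOWESS of its square. Levels used log2 of count plus 1. Primer-adjusted levels added forward and reverse primer means, fitted in turn with the distance curve (30 rounds), and iterative correction ran 100 rounds. The programs were tested on simulated matrices. Counts are not independent molecules.

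All fragments of the interval are named. Named pairs were all called pairs, each fragment's 3 highest levels without a shared site, all Emu-JH pairs, and the 2 pairs on each side of the threshold. Other enhancer pairs, shared-site pairs, F36-R77 and the neighbours of F36-R810 were named after their values were seen. Members, regions and alternatives were chosen with earlier results of these data known.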

Additional observations from a re-analysis of the deposited data

How the results depend on the processing

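Of the 14 calls, a threshold of 1.5 gave 24, one of 3 gave 5, additive removal of primer effects 1, iterative correction 4 with or without shared-site pairs, the log2 scale 5, and the interval without F38 7. Single libraries gave 21 to 22. The other settings tried stayed within 1.5 times of 14. Primer adjustment changed the sign of z for F38-R339 (-0.61), F38-R435 (-1.17) and F415-R35 (-0.63). Iterative correction did so for F272-R37 (-0.33), F158-R35 (-0.21), F38-R339 (-0.55), F38-R435 (-0.50) and F415-R35 (-0.45). Without shared-site pairs it did so for F158-R35 (-0.13), F38-R339 (-0.28), F38-R374 (-0.17), F38-R435 (-0.48) and F415-R35 (-0.61).

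The level with the 3′ enhancers was 1.06 at span 0.1, 0.98 at span 0.4, 0.99 without shared-site pairs, -0.62 with additive primer effects removed, -0.41 and -0.53 with iterative correction with and without shared-site pairs, 1.09 without pairs under 10 counts, 0.55 on the count scale and 1.38 with bounds 5 kb higher. The level with the other constant genes was 0.38 with primer effects removed, 0.60 and 0.53 with iterative correction, 2.18 without low pairs, 0.60 on the count scale, 2.41 with a pseudocount of 10 and 2.44 with higher bounds. The level with Emu-JH was 0.018 with primer effects removed, -1.04 and 0.28 with iterative correction, 1.5 without low pairs, 1.30 on the count scale and 1.24 with higher bounds. The level with VH was 0.16 with primer effects removed, 0.60 and 0.73 with iterative correction, 0.90 without low pairs, 0.99 on the count scale and 1.20 with a pseudocount of 10.

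Alternatives chosen after seeing the data changed the fragments of the interval. With F34 added, the levels were 0.92 for the enhancers, 2.60 for the constant genes and 1.27 for VH. Without F38 they were 0.81, 2.28, 1.55 for Emu-JH and 1.11. Without R39 they were 1.79, 3.07, 2.54 and 1.99. No paired analysis was possible because there is 1 group, so no replicate block could be fitted. Low counts limit the distant pairs of R39 most, where 2 pairs had 1 and 0 counts.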
